A study of Homo sapiens with 8 samples.

Results

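The 10 genes described here encode chains of the fibrillar collagens (COL1A1, COL1A2, COL3A1, COL5A1, COL5A2, COL11A1 and COL27A1) and of the fibril-associated collagens (COL9A3, COL12A1 and COL16A1). They were listed by name, out of 54174 gene symbols in the deposited table, with no cut on their response, although earlier results of these data were known. The libraries came from 143B, an established human osteosarcoma cell line derived from HOS cells. Control cells (genotype control) were transfected transiently with a vector plasmid and the others (genotype NELL1 knockout) with a plasmid labelled NELL1KO, and RNA was taken after 48 h in both groups, with 4 libraries each. The labels give no clone, no selection step and no share of edited cells, so whether a library came from a mixed or a clonal population is not known. In RNA pooled from many cells, fewer cells with a transcript and less transcript per cell cannot be told apart. NELL1 itself was near the floor in both groups, at a mean of -5.87 in the controls and -5.88 in the 3 knockout libraries with a value, and did not check the labels.

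Collagens are built from 3 chains wound into a triple helix. Fibrillar collagens assemble into the striated fibrils that carry load in bone, skin and tendon, with type I as the bulk of bone matrix, types V and XI as minor components that control how fibrils start and how thick they grow, and type XXVII as a cartilage-related fibrillar form. Fibril-associated collagens have interrupted triple helices and sit on fibril surfaces, where they link fibrils to other matrix components. Osteoblasts, the lineage that osteosarcoma resembles, are known for heavy type I collagen output.

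All values are on the deposited log2 scale, which appears to have been forced to 1 distribution in every library (highest value 12.1, median 1.77, lowest -10.5). Each difference is therefore read as relative to the rest of the transcriptome. Whether the scale was corrected for transcript length is not given in the sources used here, so levels are compared between libraries and not between genes. A value is called low here when the gene's mean over the 8 libraries was under 1. The knockout libraries fell into close pairs. Taken gene by gene, knockout library 1 differed from knockout library 2 with an SD of 0.12, and library 3 from library 4 with an SD of 0.13, but the SD between those pairs was 0.46 to 0.50. Between knockout and control libraries the SD was 0.36 to 0.45, so the knockout pairs differed from each other at least as much as from the controls. Among the control libraries it was 0.10 to 0.29. The labels name no batch, and what separates the pairs was not tested. For the 7 collagen genes with a value in all 8 libraries, the difference is therefore also given within libraries 1 and 2 and within libraries 3 and 4 of both groups. With each knockout pair averaged into 1 library, limma called none of these 7 genes (adjusted p = 0.114 to 0.881). Other genes are split or averaged in these ways only where stated. Of 6 mesenchymal markers, 5 had a value in all 8 libraries, with VIM at 10.2 to 10.9 and PDGFRB below 0 throughout, and THY1 had a value in 3. Of the osteoblast genes RUNX2, ALPL and SPP1 had a value in all 8, BGLAP had one in 3, and SP7 and IBSP were blank in all 8. Markers of other cell types were not all absent: EPCAM, an epithelial gene, was at 1.83 to 2.76 in all 8, while CDH1 had a value in 2. The leukocyte genes PTPRC and CD3E were blank in all 8, CD14 and LYZ had a value in 6, and CD68, a lysosomal gene that many cells express, was at 5.54 to 5.90. The summed level of the 5 endothelial markers stayed between -3.20 and -0.59.

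Of the 10 genes, 7 had a value in all 8 libraries and 3 (COL1A2, COL3A1 and COL11A1) were blank in at least 1. Only COL5A2, COL9A3, COL12A1 and COL27A1 had a mean of at least 1 and entered the limma fit over 9016 genes, and COL1A1, COL5A1 and COL16A1 were measured everywhere but low. The fit called 1 of these 4 at a Benjamini-Hochberg adjusted p-value under 0.05, beside 13.1% of all tested genes. It was COL9A3, which was lower in the knockout libraries (6.1% of all tested genes were called lower).

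**Figure D1:**
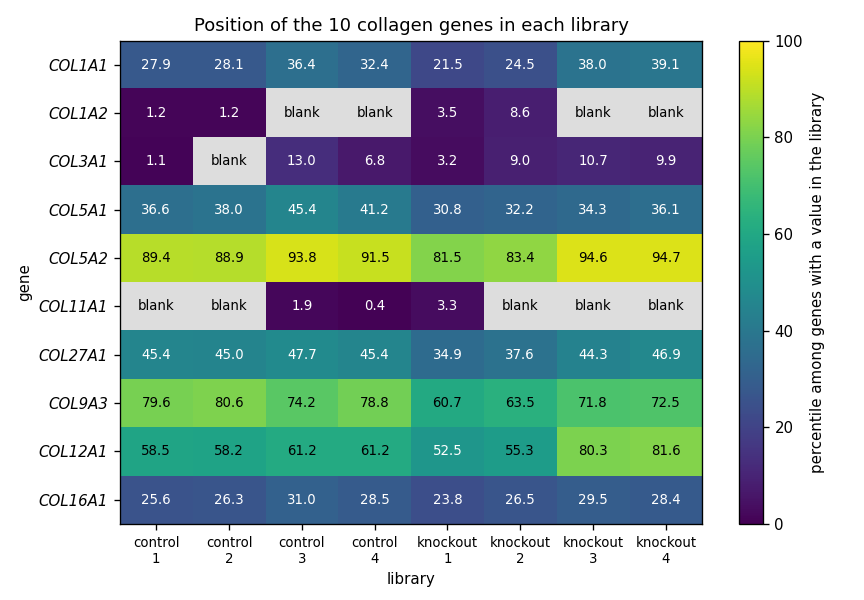
Percentile of each of the 10 collagen genes (rows) among all genes with a value in the same library (columns, 4 control and 4 knockout libraries), with grey cells for blanks. COL1A2, COL3A1 and COL11A1 are blank in some libraries and at or below percentile 13.0 in the others, while COL5A2 lies between percentiles 81.5 and 94.7; the scale may depend on transcript length, so rows are not to be ranked against each other.

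The major fibrillar chains were examined first. COL1A1 (chromosome 17, 50184101 to 50201631, GRCh38.p14) encodes the chain present in 2 copies in the common type I trimer. Its log2 values were -0.33, -0.30, 0.65 and 0.24 in control libraries 1 to 4, and -1.45, -0.87, 0.80 and 0.90 in knockout libraries 1 to 4. Knockout libraries 1 and 2 lay below every control and knockout libraries 3 and 4 above every control, so the groups overlapped. The means were 0.06 ± 0.47 and -0.16 ± 1.19 (SD, n = 4 each), and the difference of -0.22 was smaller than the spread (exact two-sided permutation test, p = 0.771). Its 95% interval from limma without a filter on low values reached from -1.52 to 1.08, so changes of either sign within that range could not be told from 0. Within libraries 1 and 2 the difference was -0.85, and within libraries 3 and 4 it was 0.41.

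COL1A2 (chromosome 7, 94394895 to 94431227) encodes the partner chain of the type I heterotrimer. It was at the bottom of the table: -7.53 and -7.55 in control libraries 1 and 2, -6.48 and -4.82 in knockout libraries 1 and 2, and blank in libraries 3 and 4 of both groups. The values lay between percentiles 1.19 and 8.57 of the genes measured in those libraries. The blanks followed the replicate numbers and not the groups, as for 2 of the 306 genes with a value in exactly 4 libraries, COL1A2 included; another 9 had the reverse, with values in libraries 3 and 4 of both groups and blanks in 1 and 2. COL3A1 (chromosome 2, 188974373 to 189012746), the type III chain of skin and vessel fibrils, was also near the floor. It was at -7.63, -3.53 and -5.37 in control libraries 1, 3 and 4, blank in control library 2, and at -6.59, -4.70, -4.19 and -4.41 in knockout libraries 1 to 4. The values of COL3A1 overlapped between the groups. No test was made on COL1A2, COL3A1 or COL11A1, whose blanks cannot be read as 0.

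The regulatory chains of type V gave a different picture for each chain. COL5A1 (chromosome 9, 134641803 to 134844843) encodes the chain that is present in every common form of type V. It was at 0.67, 0.80, 1.42 and 1.08 in control libraries 1 to 4 and at 0.05, 0.22, 0.44 and 0.62 in knockout libraries 1 to 4. Every knockout value lay below every control value, the closest being 0.62 and 0.67. The means were 0.99 ± 0.33 and 0.33 ± 0.25 (SD, n = 4 each), a difference of -0.66, or 1.58-fold lower (two-sided exact permutation p = 0.0286, the smallest that 4 against 4 allows). The difference was nearly the same within libraries 1 and 2 (-0.61) and within libraries 3 and 4 (-0.72). COL5A1 was not called when all 13943 genes with 8 values were fitted without a filter (limma adjusted p = 0.0720), nor in that fit with a block for the replicate number (adjusted p = 0.0545) or with each knockout pair averaged (adjusted p = 0.251). With a term for libraries 1-2 against 3-4 it was called (limma adjusted p = 0.00927), in a fit that called 18.4% of those genes. None of the 8 fits without a filter that left out 1 library called COL5A1 (limma adjusted p = 0.0764 to 0.173). The permutation test takes the close knockout pairs as independent libraries. Of the 7 members with 8 values, 2 were lower in every knockout library than in every control, COL5A1 and COL9A3, and 9.02% of all genes with 8 values were so placed.

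COL5A2 (chromosome 2, 189031898 to 189441111) lies next to COL3A1 and encodes the second chain of the common type V trimer. It was at 4.71, 4.65, 5.41 and 5.01 in control libraries 1 to 4 and at 3.90, 4.06, 5.60 and 5.63 in knockout libraries 1 to 4. As for COL1A1, knockout libraries 1 and 2 were below every control and knockout libraries 3 and 4 above every control. The log2 fold change was -0.14 (95% interval -1.11 to 0.82; limma adjusted p = 0.855). It was -0.70 within libraries 1 and 2 and 0.41 within libraries 3 and 4.

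The relation between the type V chains was then read within each library. The difference COL5A1 minus COL5A2 within a library, on a log2 scale that may not be per length, was -4.04, -3.85, -3.98 and -3.93 in control libraries 1 to 4. It was -3.86 and -3.84 in knockout libraries 1 and 2, level with the highest control, and -5.16 and -5.01 in knockout libraries 3 and 4. In those last libraries COL5A1 was below and COL5A2 above every control, although COL5A1 was lower still in knockout libraries 1 and 2. Whether the knockout pairs differ in this measure was not tested.

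The remaining fibrillar members were COL27A1 and COL11A1. COL27A1 (chromosome 9, 114154098 to 114312511) was at 1.42, 1.39, 1.60 and 1.42 in control libraries 1 to 4 and at 0.50, 0.76, 1.34 and 1.53 in knockout libraries 1 to 4. The first pair of knockout libraries was well below the controls, library 3 was just below them and library 4 was among them. The log2 fold change was -0.43 (95% interval -0.91 to 0.06; limma adjusted p = 0.220), made up of -0.78 within libraries 1 and 2 and -0.08 within libraries 3 and 4. COL11A1 (chromosome 1, 102876473 to 103108522), the type XI chain of cartilage fibrils, had a value in 3 libraries: -7.14 and -8.24 in control libraries 3 and 4 and -6.58 in knockout library 1. It was blank in the other 5.

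**Figure D2:**
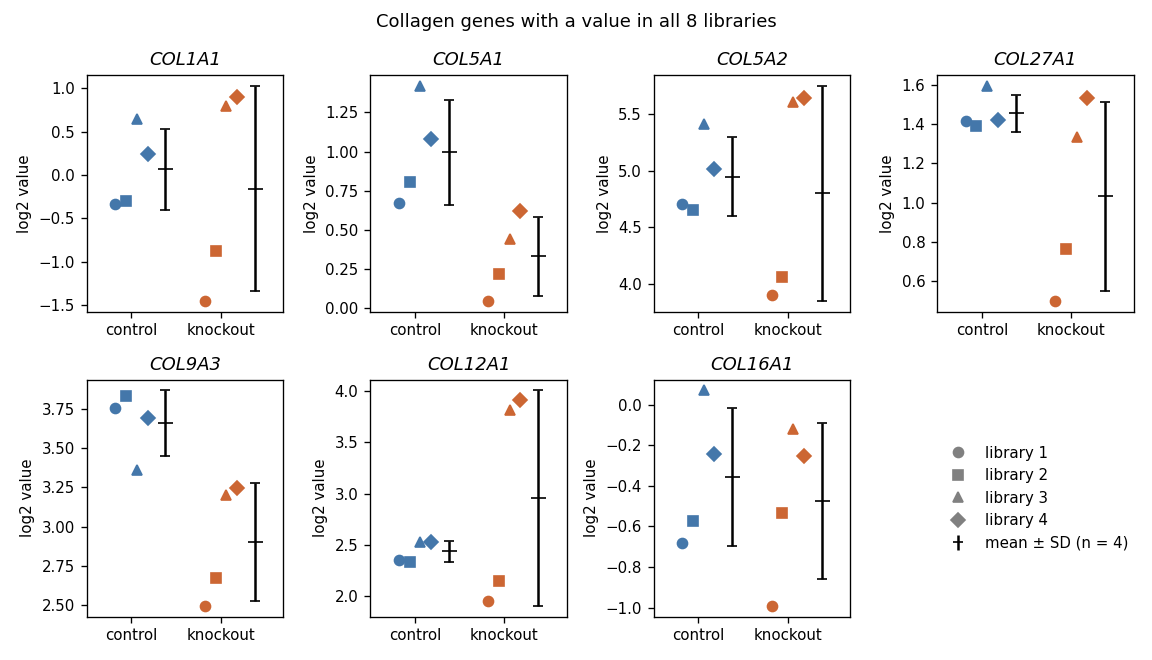
Log2 values (y axes, each with its own range) of the 7 collagen genes measured in all 8 libraries, by group, with a marker shape per replicate number and black bars for the mean ± SD of 4 libraries. Knockout libraries do not overlap the controls for COL5A1 and COL9A3, and they stand on both sides of the controls for COL1A1, COL5A2 and COL12A1.

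Among the fibril-associated collagens, COL9A3 (chromosome 20, 62816213 to 62841159) encodes 1 of the 3 chains of type IX collagen, which decorates the surface of type II collagen fibrils in cartilage. It was at 3.75, 3.84, 3.36 and 3.69 in control libraries 1 to 4 and at 2.49, 2.67, 3.20 and 3.24 in knockout libraries 1 to 4. The knockout values were all below the controls, although knockout library 4 and control library 3 lay close together, at 3.24 and 3.36. The control mean was 3.66 ± 0.21 and the knockout mean 2.90 ± 0.38 (SD, n = 4 each). The log2 fold change was -0.76 with an SE of 0.19 (limma adjusted p = 0.0329), or 1.69-fold lower. The fall was -1.21 within libraries 1 and 2 and -0.30 within libraries 3 and 4, and whether the 2 sets differ was not tested. COL9A3 was no longer called with the replicate block (limma adjusted p = 0.0689), without the filter on low values (0.0545) or with each knockout pair averaged (0.114). It was called with a term for libraries 1-2 against 3-4 (limma adjusted p = 0.0184), in a fit that called 25.2% of tested genes. The adjusted p also lay above 0.05 without control library 1 (0.0986), 2 (0.103) or 4 (0.0944) and without knockout library 1 (0.0555) or 2 (0.0679), so 3 of the 8 fits that left out 1 library made the call. SOX9, the transcription factor of cartilage that is known to act on type II and type IX genes, was at 4.12 to 4.22 in the controls and at 3.03 to 4.56 in the knockouts (log2 fold change -0.41, limma adjusted p = 0.442). Its difference was -1.04 within libraries 1 and 2 and 0.23 within libraries 3 and 4, and its part in the fall of COL9A3 was not tested. The chondrocyte markers ACAN, MATN1 and SNORC were all low, at control means of -5.61, -3.80 and -1.85. Their knockout means were -5.53, -3.38 and -1.97, so ACAN and MATN1 were higher and SNORC lower. COL2A1, also a chondrocyte marker, is given below.

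COL12A1 (chromosome 6, 75084326 to 75206053) encodes type XII collagen, a long homotrimer found on type I fibrils of tendon and periosteum. It was at 2.36, 2.33, 2.53 and 2.53 in control libraries 1 to 4, a narrow range, and at 1.95, 2.15, 3.81 and 3.91 in knockout libraries 1 to 4. Knockout libraries 3 and 4 were far above every control and knockout libraries 1 and 2 slightly below every control. The log2 fold change over all libraries was 0.52 (95% interval -0.49 to 1.53; limma adjusted p = 0.473), which averages -0.29 within libraries 1 and 2 and 1.34 within libraries 3 and 4, the latter a 2.52-fold difference. This placement, with the first knockout pair below and the second above every control, was seen for COL1A1, COL5A2 and COL12A1 among the 7 members, and for 6.12% of all genes with 8 values. COL16A1 (chromosome 1, 31652263 to 31704017), a fibril-associated chain of skin and cartilage, was at -0.68, -0.57, 0.07 and -0.24 in control libraries 1 to 4 and at -0.99, -0.53, -0.12 and -0.25 in knockout libraries 1 to 4. The groups of COL16A1 overlapped almost fully, and the difference of -0.12 was within the spread (exact two-sided permutation test, p = 0.686; limma 95% interval without a filter -0.65 to 0.42).

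The promoter windows of COL5A1 and COL12A1 are shown because these members took opposite courses in knockout libraries 3 and 4, where the first was below and the second above every control. RefSeq windows were found for 5 of the 10 members (COL5A1, COL11A1, COL12A1, COL16A1 and COL27A1). The stretches below run 5′ to 3′ on the gene's strand in GRCh38.p14, end before the first annotated exon base in GENCODE 29, and have in capitals each match to GGGCGG on either strand. They are the plus strand of chr9:134641553-134641773 for COL5A1, from 250 to 30 bases before its RefSeq start, and the minus strand of chr6:75206054-75206303 for COL12A1, from 250 bases before its start to the base before it.
COL5A1: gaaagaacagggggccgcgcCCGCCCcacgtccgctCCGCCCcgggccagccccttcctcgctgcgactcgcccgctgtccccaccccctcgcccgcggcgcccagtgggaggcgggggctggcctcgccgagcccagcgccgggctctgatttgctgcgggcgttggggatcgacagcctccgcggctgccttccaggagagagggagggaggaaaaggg
COL12A1: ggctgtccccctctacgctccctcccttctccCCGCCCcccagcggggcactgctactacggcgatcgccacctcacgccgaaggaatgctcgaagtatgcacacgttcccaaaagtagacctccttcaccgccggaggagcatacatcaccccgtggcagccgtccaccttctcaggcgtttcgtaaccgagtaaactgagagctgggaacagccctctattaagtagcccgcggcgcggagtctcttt
COL5A1 had 2 matches to GGGCGG and COL12A1 had 1, all on the strand opposite to the gene, and 42.6% of 35116 RefSeq windows of 250 bases held at least 1 on either strand. The letters TATAAA (10.7% of windows) and CCAAT (32% of windows), also searched on both strands, were in neither stretch. The share of G and C was 75.6% in the COL5A1 stretch and 61.2% in the COL12A1 stretch. No motif overlapped another in these stretches.

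**Figure D3:**
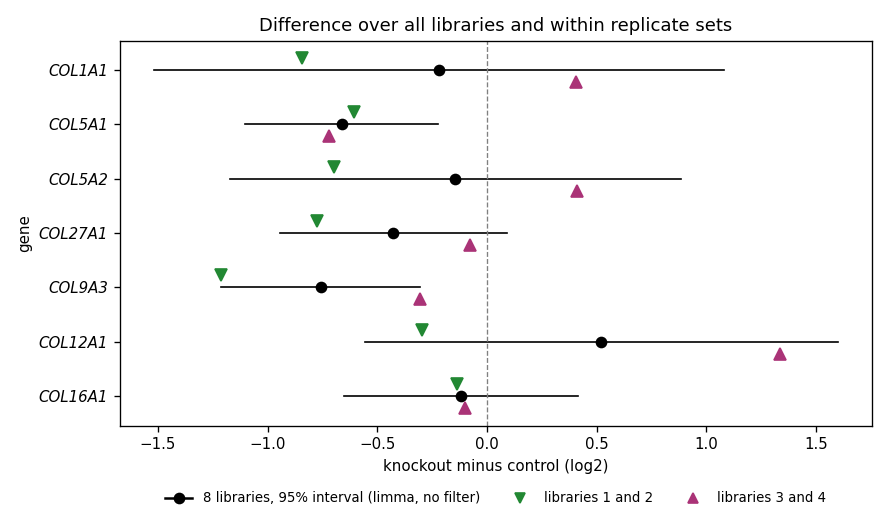
Knockout minus control difference (x axis, log2) for the 7 collagen genes (rows): black points and lines are the limma estimate over 8 libraries without a filter and its 95% interval, and triangles are the differences within libraries 1 and 2 (pointing down) and within libraries 3 and 4 (pointing up). For COL5A1 and COL16A1 the triangles lie close together, at -0.61 and -0.72 and at -0.13 and -0.10, while for COL12A1 they lie at -0.29 and 1.34.

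The order of the libraries was similar across the members. In all 7 members with 8 values, knockout libraries 1 and 2 were below knockout libraries 3 and 4, an order held by 40% of all genes with 8 values. Control libraries 1 and 2 were also below control libraries 3 and 4 in 6 of the 7, COL9A3 being the exception, beside 35.6% of all genes. Knockout libraries 1 and 2 were below every control for 6 of the 7, COL16A1 being the exception, beside 24.3% of all genes. The 7 genes share their libraries, and these counts describe the same 8 columns.

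The other chains of these collagen families were then read from a list of 11 genes, all of which had a value in at least 1 library and none of which had a mean of at least 1. The values of COL9A2, COL5A3 and COL2A1 are given because their groups did not overlap, a choice made after the values were seen. COL9A2, a partner chain of COL9A3 in type IX collagen, was at 0.84, 1.07, 0.86 and 0.99 in control libraries 1 to 4 and at 0.28, 0.18, 0.27 and 0.19 in knockout libraries 1 to 4. The groups stood clearly apart and both were tight. In the limma fit without a filter, which called 8.3% of 13943 genes, COL9A2 fell by 0.71 ± 0.08 log2 units (SE; adjusted p = 0.00418), or 1.64-fold. The difference was -0.72 within libraries 1 and 2 and -0.70 within libraries 3 and 4. COL9A2 stayed called with the replicate block (limma adjusted p = 0.0395, in a fit that called 3.02% of genes) and in all 8 fits that left out 1 library (0.00705 to 0.0280), but not with the knockout pairs averaged (0.0765).

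COL5A3, the third type V chain, rose from very low values of -5.04, -4.14, -4.44 and -4.59 in control libraries 1 to 4 to -3.19, -2.83, -3.48 and -2.80 in knockout libraries 1 to 4. In the limma fit without a filter its log2 fold change was 1.47 ± 0.22 (SE; adjusted p = 0.0125), opposite in sign to that of COL5A1. It was called with the replicate block (limma adjusted p = 0.0377) and not with the knockout pairs averaged (0.102). Leaving out 1 library gave adjusted p-values of 0.0197 to 0.0504 and kept 7 of 8 calls. COL2A1, the cartilage fibrillar chain that type IX decorates, was at -3.82, -3.95, -3.87 and -3.74 in control libraries 1 to 4 and at -4.63, -4.27, -4.54 and -5.51 in knockout libraries 1 to 4. It did not pass the threshold (limma without a filter, log2 fold change -0.89, adjusted p = 0.0643). COL9A1 had a value in 5 libraries, all at or below -6.63.

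**Figure D4:**
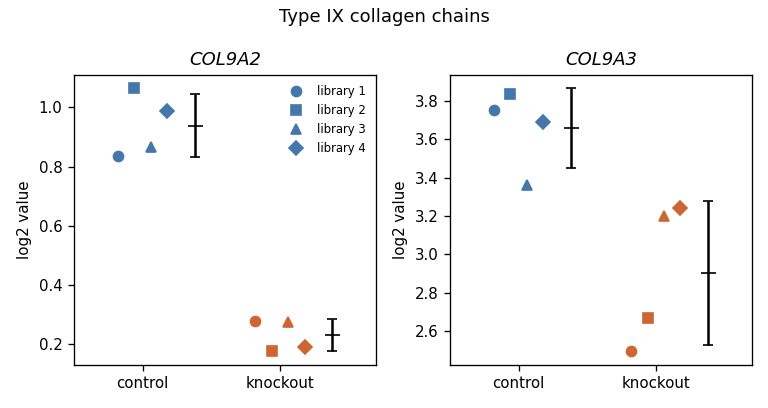
Log2 values (y axes, each with its own range) of the type IX chains COL9A2 and COL9A3 in the 4 control and 4 knockout libraries, with a marker shape per replicate number and black bars for the mean ± SD. Both genes are lower in every knockout library than in every control; the knockout values of COL9A2 lie between 0.18 and 0.28, while those of COL9A3 differ between libraries 1 and 2 (2.49 and 2.67) and libraries 3 and 4 (3.20 and 3.24).

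Genes that fold, export, process, bind and degrade fibrillar collagen were read from 7 further lists. Together with the other collagen chains the lists held 114 genes, of which 67 were tested and 12 called, 3 higher and 9 lower. That is 17.9%, beside 13.1% of all tested genes called in either direction and 6.1% called lower. With the replicate block 11 were called (10.2% of all tested genes), and with the knockout pairs averaged 2 were, SEC24D and MMP9 (1.2% of all tested genes). Without control library 1, and likewise without control library 4, 7 were called, beside 4.92% and 4.34% of all tested genes in those fits.

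In the folding and modification list, 2 of 17 tested genes rose, 1 fell and 14 were not called, with a median log2 fold change of -0.10 beside 0.01 over all tested genes. SERPINH1, the collagen-specific chaperone HSP47, fell from 5.01, 5.03, 5.10 and 5.02 in control libraries 1 to 4 to 4.71, 4.66, 4.54 and 4.63 in knockout libraries 1 to 4 (log2 fold change -0.40, limma adjusted p = 0.00696). The groups were narrow and did not overlap. P3H2 and P3H3, of the prolyl 3-hydroxylase family, rose by 0.93 and 0.35 (limma adjusted p = 0.00912 and 0.0453), and P3H3 was not called with the replicate block (0.0502). The lysyl hydroxylases PLOD1, PLOD2 and PLOD3 and the prolyl 4-hydroxylase subunit P4HA1 had log2 fold changes of -0.41, -0.35, -0.19 and -0.62 and were not called (limma adjusted p = 0.0861, 0.0855, 0.0973 and 0.0800).

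In the secretion list, 1 of 10 tested genes was called and the median was -0.01. SEC24D, the cargo adaptor of COPII vesicles whose loss impairs procollagen export, was at 3.74, 3.75, 3.72 and 3.80 in control libraries 1 to 4 and at 3.01, 3.06, 2.58 and 2.69 in knockout libraries 1 to 4. It fell by 0.91 ± 0.11 log2 units (SE; limma adjusted p = 0.00301) and was the member of this list that stayed called with the knockout pairs averaged (0.0270). MIA3 and SEC23A, which work at the same exit sites, had log2 fold changes of -0.09 and -0.03 (limma adjusted p = 0.404 and 0.789). None of the 6 tested genes for propeptide removal and crosslinking was called by limma, 1 had an unadjusted p under 0.05, and the median was 0.09. Their changes ranged from -0.47 for the procollagen C-proteinase BMP1 to 0.31 for the lysyl oxidase LOX (limma adjusted p = 0.122 and 0.388).

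Of the 5 tested proteins that sit on or nucleate fibrils, FN1 fell (-1.26) and SPARC rose (0.62), with limma adjusted p-values of 0.0261 and 0.0294, and BGN, THBS1 and THBS2 were not called. Of the 8 tested collagen receptors 2 fell (6.1% of all tested genes were called lower) and none rose, with a median of -0.52. They were ITGA1 and ITGB1, the chains of integrin alpha-1 beta-1. ITGA1 was at 1.96, 1.98, 2.14 and 2.10 in control libraries 1 to 4 and at 1.23, 1.22, 1.64 and 1.56 in knockout libraries 1 to 4 (log2 fold change -0.63, limma adjusted p = 0.0102). ITGB1, the beta chain shared by many matrix receptors, fell by 0.34 (limma adjusted p = 0.0171). The receptor kinases DDR1 and DDR2 and the endocytic receptor MRC2 had log2 fold changes of -0.63, -0.18 and -0.57 and were not called (limma adjusted p = 0.222, 0.446 and 0.139). Within libraries 1 and 2 their differences were -1.27, -0.28 and -1.13, and within libraries 3 and 4 they were 0.02, -0.09 and -0.01.

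Of the 8 tested genes of fibrillar collagen degradation 4 fell (6.1% of all tested genes were called lower), none rose and 4 were not called, with a median of -0.40. The interstitial collagenase gene MMP1 was at 11.41, 11.41, 10.81 and 11.25 in control libraries 1 to 4 and at 10.27, 10.48, 10.32 and 10.32 in knockout libraries 1 to 4 (log2 fold change -0.87, limma adjusted p = 0.00673). The membrane collagenase MMP14 fell by 1.20, the gelatinase MMP9 fell by 2.46 and the inhibitor TIMP1 fell by 0.85 (limma adjusted p = 0.0180, 0.00696 and 0.00491). The genes that fell thus included proteases and an inhibitor of them. MMP2 was not called (log2 fold change 0.05, limma adjusted p = 0.954), with differences of -0.94 within libraries 1 and 2 and 1.04 within libraries 3 and 4. None of 13 tested transcription factors and other regulators known to act on these collagen genes was called by limma, 4 had an unadjusted p under 0.05, and the median was -0.12.

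**Figure D5:**
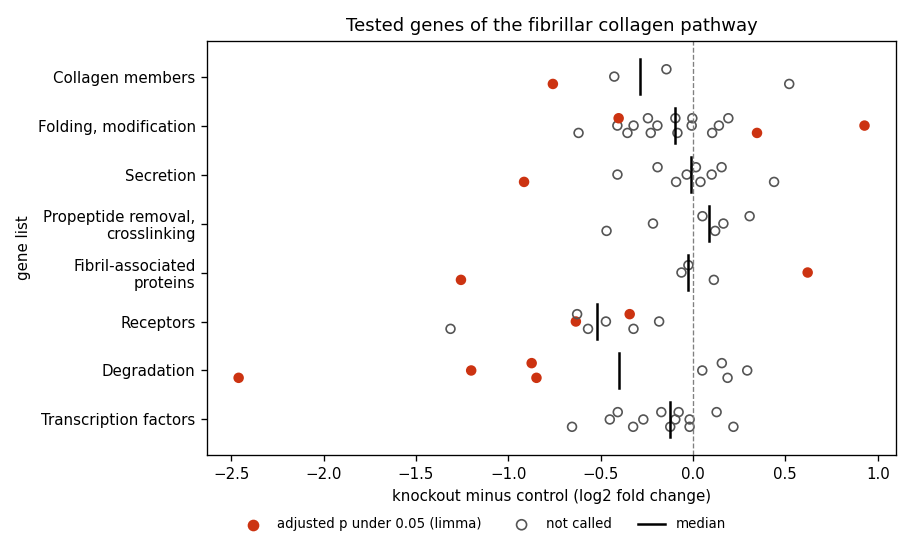
Log2 fold change, knockout minus control (x axis), of each tested gene of the collagen members and of 7 lists of the fibrillar collagen pathway (rows); filled points have a limma adjusted p under 0.05 and black bars are list medians. The called genes are mostly on the left, with 9 lower and 3 higher over the lists, and the degradation list holds the largest fall, MMP9 at -2.46. Of all tested genes 6.1% were called lower.

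Finally, the genes whose values over the 8 libraries were most like those of a member were listed by Pearson's r, as a description without a test. The libraries form close pairs, so that a high r mostly reflects the same placement of a few clusters. For COL12A1, the tested member with the largest SD over the libraries, they were the clustered histone genes H2AC20 (r = 0.998) and H2AC8 (r = 0.998) and MAPRE2 (r = 0.998), which encodes a microtubule end-binding protein. For COL9A3, the tested member with the largest fold change, they were GLG1 (r = 0.998), C14orf132 (r = 0.995) and PDGFRA (r = 0.995), which encodes a platelet-derived growth factor receptor.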

How the data were processed

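Per the labels' protocols, TRIzol was used for RNA extraction and an Illumina stranded kit for total RNA libraries; the submitters' processing notes name bcl2fastq, Partek 7.0 and the build GRCh38 without a role. The deposited table holds 1 log2 value per gene symbol and library; the base was inferred from the range. The unit before the logarithm, aligner, counting program and rule for blank cells are not given in the sources used here. The deposited columns appear to share 1 distribution, as after quantile normalization, a step inferred from the values. For example, a value of 0.80 stood at percentile 38.0 both in control library 2 (COL5A1) and in knockout library 3 (COL1A1). Groups and replicate numbers came from the sample titles, and columns were matched by description label. Blanks were treated as missing. Depth is unknown, and precision rests on the spread between libraries, whose labels do not state separate cultures (the design text calls them biological replicates); p-values measure that spread only.

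Of 13943 genes measured in every library, the 9016 whose mean was at least 1 were fitted with limma 3.58.1 in R 4.3.3, knockout minus control, with Benjamini-Hochberg adjustment over all of them. The fit was tested on simulated data with independent errors in each library, so that test did not cover the close knockout pairs. For members under that mean, exact permutation tests (two-sided, 70 splits, SciPy 1.17.1) were used. The members, lists, averaging of knockout pairs and sets 1-2 and 3-4 were chosen with earlier results of these data known; combinations of no filter with a block, set term or averaging were added after seeing the data. Genes named from a list were its called genes, up to 4 by size; others named were chosen after their values were seen.

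No pairing of libraries is stated, and the main fit used none, with the replicate block as an alternative. Same-numbered control and knockout libraries deviated together from their group means (correlation across genes 0.25 on average, 0.20 to 0.29 over 4 pairs). Pairs of other number within sets 1-2 or 3-4 gave 0.23 (0.11 to 0.31), and pairs across the sets gave -0.24 (-0.304 to -0.146). The correlation thus followed the sets and did not single out the replicate number as a pairing. Coordinates and promoter windows are from RefSeq on GRCh38.p14.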

Additional observations from a re-analysis of the deposited data

Results flagged for a closer look

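COL27A1 was 1.60 in control library 3, against 1.39 to 1.42 in the other 3 controls, a gap large beside the group's range by Dixon's criterion. It was the single such library among 39 groups of 4 values examined over 20 genes, where chance gives about 1 in 20.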

How the results depend on the processing

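COL9A3 (-0.76, called) had the same value but missed the threshold with no filter on low values (-0.76), with the replicate block (-0.76) and with knockout pairs averaged (-0.76). It was -1.21 in replicates 1-2 only (called) and -0.30 in replicates 3-4 only (not called). Leaving out 1 library gave -0.87 to -0.62, with 3 of 8 fits calling it. COL5A1 (-0.66) missed the threshold in limma with no filter (-0.66), with the replicate block (-0.66) and with pairs averaged (-0.66), and was -0.41 with a pseudocount of 1. It gave -0.77 to -0.52 when 1 library was left out, and none of those no-filter fits called it. The difference of COL5A2 was -0.70 in replicates 1-2 only and reversed to 0.41 in replicates 3-4 only (both called), with -0.42 to 0.15 when 1 library was left out. COL12A1 reversed to -0.29 in replicates 1-2 only and was 1.34 in replicates 3-4 only (both called), with 0.20 to 0.86 when 1 library was left out. COL27A1 was -0.78 in replicates 1-2 only (called) and -0.59 to -0.25 when 1 library was left out, the latter without knockout library 1. COL1A1 reversed to 0.41 in replicates 3-4 only and ranged from -0.57 to 0.21 when 1 library was left out, and COL16A1 ranged from -0.24 to 0.054. With a pseudocount of 1 the differences of COL1A1 and COL16A1 shrank to -0.033 and -0.049. The cause of these changes was not tested. Of all 9016 tested genes, 1183 were called, 2274 with the term for replicates 1-2 against 3-4, 108 with pairs averaged and 272 at an adjusted p under 0.01. Leaving out 1 library gave 391 to 1353, and with a mean of at least 3 it was 729 of 4684 genes. The fits within 1 set, with 2 libraries in each group, gave the member calls within sets above. They called 5380 of the 9016 genes in replicates 1-2 only and 2987 in replicates 3-4 only. Of 67 tested genes of the pathway lists 12 were called, 26 with the set term, 2 with pairs averaged and 6 at an adjusted p under 0.01. Within the sets 45 and 29 of the 67 were called, and without 1 library 7 to 15 were. The replicate block changed no other call among the members. Median centring and a further quantile normalization left the direction and call of the 7 members with 8 values as they were; COL1A2, COL3A1 and COL11A1 were not run. A mean of at least 3 left no value for COL12A1, COL27A1 or the low members, and a variance trend was not run for the low members.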
